A study of Mus musculus with 12 samples.

Results

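The collagen chain genes were taken as every gene whose mouse symbol reads Col, a number, a and a number, with nothing after it. The gene table held 39017 Ensembl genes, and 44 of them met this rule. They were followed in 12 poly(A) RNA-seq libraries of mouse embryonic stem cells (mESCs), 3 biological replicates in each of 4 groups, made from 2 cell lines in 2 media. The wild-type line was J1, a male mESC line. The other line, labelled 3B3-3l and called 3B3L in the study, lacks functional Dnmt3a and Dnmt3b, the enzymes that set new DNA methylation, and carries Dnmt3b and Dnmt3l transgenes driven by the constitutive CAG promoter. It is a drug-selected line, made to keep its DNA methylation in 2i medium, where wild-type mESCs lose it.

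The groups were J1 in serum, J1 in 2i, 3B3-3l in serum and 3B3-3l in 2i. Serum medium held foetal calf serum, and 2i medium was serum-free N2B27 with PD0325901, an inhibitor of MEK, and CHIR99021, an inhibitor of GSK3. All 4 groups received the cytokine LIF. J1 cells in serum were grown on inactivated SNLP feeder cells, which were depleted by plating before analysis, whereas 3B3-3l cells were grown on gelatin. Line and culture surface therefore cannot be told apart in the serum comparison of the lines, nor can loss of the endogenous enzymes and gain of the transgenes in either medium. The feeders are given for J1 in serum only and were depleted before 2i conversion, so medium and feeder culture cannot be told apart in J1. Any comparison of the 2i change between the lines carries the same limit.

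Collagens are extracellular proteins built from 3 chains wound into a triple helix, either copies of a single chain or a mixture of related chains. Fibrillar collagens form the rope-like fibrils of connective tissue, and FACIT collagens (fibril-associated collagens with interrupted triple helices) lie on the surface of those fibrils. Collagen IV forms the mesh of basement membranes, an early matrix of the embryo, and multiplexins such as collagen XVIII sit in the same membranes. Transmembrane collagens stay in the plasma membrane, beaded filament collagens (collagen VI) form microfibrils around cells, and short chain collagens form open networks. The chains are hydroxylated and folded in the endoplasmic reticulum, trimmed outside the cell and cross-linked there.

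The upstream sequence of 4 chains that the results turn on is given here because CpG dinucleotides, the pairs of bases written in capitals, are the sites at which the Dnmt3 enzymes add methyl groups. Each sequence is the part of a RefSeq promoter window (build GRCm38.p6) that lies before the gene, read 5′ to 3′ on the gene's own strand. Col18a1 and Col1a2 fell in 2i in both lines, Col5a1 fell less in J1 than in 3B3-3l, and Col13a1 rose in both. The positions are chr10:77166531-77166780 on the minus strand for Col18a1, chr6:4505368-4505617 on the plus strand for Col1a2, chr2:27886175-27886380 on the plus strand for Col5a1 and chr10:61979207-61979358 on the minus strand for Col13a1.
Col18a1: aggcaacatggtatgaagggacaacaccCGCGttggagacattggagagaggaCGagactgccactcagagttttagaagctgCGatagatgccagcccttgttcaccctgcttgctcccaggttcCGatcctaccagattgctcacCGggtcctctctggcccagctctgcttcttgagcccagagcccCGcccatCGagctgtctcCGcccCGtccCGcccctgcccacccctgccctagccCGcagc
Col1a2: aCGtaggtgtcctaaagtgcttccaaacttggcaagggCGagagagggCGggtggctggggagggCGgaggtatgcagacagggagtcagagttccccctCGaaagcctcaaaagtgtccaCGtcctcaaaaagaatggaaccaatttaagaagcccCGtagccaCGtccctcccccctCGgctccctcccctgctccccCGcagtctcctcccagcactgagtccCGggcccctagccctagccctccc
Col5a1: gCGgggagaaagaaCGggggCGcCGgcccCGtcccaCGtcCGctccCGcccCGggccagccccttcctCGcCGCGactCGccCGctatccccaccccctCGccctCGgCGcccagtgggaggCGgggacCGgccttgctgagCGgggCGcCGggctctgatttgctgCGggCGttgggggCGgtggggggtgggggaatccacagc
Col13a1: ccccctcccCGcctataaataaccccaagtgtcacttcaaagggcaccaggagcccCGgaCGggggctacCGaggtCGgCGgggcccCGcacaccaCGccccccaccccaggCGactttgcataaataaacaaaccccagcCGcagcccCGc
They hold 12 CpGs in 250 bases for Col18a1, 11 in 250 for Col1a2, 25 in 206 for Col5a1 and 11 in 152 for Col13a1.

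Col4a1 and Col4a2 are neighbours that are read in opposite directions from the same short stretch of chromosome 8. A RefSeq start of Col4a1, on the minus strand, is at base 11312826. That of Col4a2, on the plus strand, is at base 11312805, so the first 22 bases of transcripts from these starts overlap. The RefSeq extent of Col4a1 runs on to base 11312889, so the genes overlap further. The 30 bases at chr8:11312801-11312830, on the Col4a2 strand, hold both of these starts, again with CpG in capitals.
Col4a1-Col4a2 starts: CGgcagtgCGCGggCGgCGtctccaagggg
The libraries kept strand, so reads over this overlap could be told apart.

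RefSeq windows from 250 bases before to 50 after a start were matched to 35 of the 44 genes, in 38 windows. The median collagen window held 11.5 CpGs against 7 over all 32851 windows. The letters GGGCGG, on either strand, were in 60.5% of collagen windows and in 35.7% of all windows, CCAAT on either strand in 34.2% and 37.4%, and TATAAA on either strand in 13.2% and 13.6%. These are counts of letters only. Over the 29 genes with both a window and a fitted change, the number of CpGs had a Spearman's rho of -0.08 with the 2i change in J1 and of -0.02 in 3B3-3l, which is a description across genes that share the same libraries.

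By class the 44 genes were 11 fibrillar chains, 6 basement membrane network chains, 9 FACIT chains, 4 transmembrane chains, 6 beaded filament chains, 3 short chain network chains, 2 multiplexins, the anchoring fibril chain Col7a1 and 2 others (Col26a1 and Col28a1). Low counts removed 6 of them (Col10a1, Col19a1, Col24a1, Col28a1, Col4a4 and Col9a1), each with 17 to 51 counts over all 12 libraries, and 38 were tested. Levels are given as CPM, counts per 1000000 reads with TMM-scaled library sizes. The highest group mean reached 10 CPM for 11 genes and lay from 1 to 10 CPM for 17, and 16 stayed under 1 CPM in every group. A library held 37050652 to 44515395 estimated reads, so a count of 3 in a library was worth 0.0674 to 0.081 CPM.

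As a check of the line labels, Dnmt3b stood at 404 to 427 CPM in J1 serum and 41 to 47.2 in J1 2i, and at 866 to 927 in 3B3-3l serum and 914 to 936 in 3B3-3l 2i, a gene count in which transgene and endogenous reads cannot be told apart. Dnmt3l was at 285 to 294 CPM in 3B3-3l 2i against 47.9 to 55.5 in J1 2i, and Dnmt3a at 29.4 to 34.3 CPM in 3B3-3l serum against 166 to 167 in J1 serum. The mESC markers summed to 4697 CPM or more in every library. Fibroblast markers differed in level. Lum was at 0 in 11 of the 12 libraries, while Dcn and Twist2 were at 0 in all 6 2i libraries. Mmp2 was at 30.9 CPM in J1 serum and 42.4 in 3B3-3l serum, and Thy1 at 11.3 and 14.1. Pdgfrb rose in J1, from 6.31 CPM in serum to 19.4 in 2i. The 15 fibroblast markers summed to 52.3 to 61.6 CPM in J1 serum, 74.7 to 76.1 in 3B3-3l serum, 29.7 to 31.1 in J1 2i and 22.1 to 22.9 in 3B3-3l 2i, mostly from Mmp2, Thy1, Fbn1 and Pdgfrb, and 7 of the 15 passed the filter. The 12 primitive endoderm markers, nearly all of whose sum came from Sparc and Lama1, summed to 286 to 300.4 CPM, 312 to 318 CPM, 455 to 463 CPM and 367 to 380.3 CPM in the same order. By gene, all 12 were tested. In 2i against serum 5 were lower and 5 higher in J1 (median log2 fold change -0.70), and 9 were lower and 1 higher in 3B3-3l (median -1.41), so that most of those called in 3B3-3l fell as the collagen chains did. Of the 7 tested fibroblast markers 4 were lower and 1 was higher in each line (median -0.81 in J1 and -1.45 in 3B3-3l). Of all genes tested, 32.9% were lower and 33.2% higher in J1, and 32.7% were so in each direction in 3B3-3l. In bulk RNA, fewer cells of a type and less RNA per cell cannot be told apart, and the part of either marker list in the collagen results was not tested.

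Summed over the 44 genes, collagen transcripts were lower in every 2i library than in every serum library of either line. The sum was 817 CPM ± 20.6 (SD, n = 3) in J1 serum and 145 ± 7.74 in J1 2i, and it was 852 ± 75.5 in 3B3-3l serum and 164 ± 2.87 in 3B3-3l 2i. In serum most of it was Col18a1, and without that gene the sums were 245 ± 12.4, 76.1 ± 2.61, 296 ± 22.7 and 75.9 ± 1.47 in the same order. The serum sums of the lines overlapped, at 799 to 839.6 CPM in J1 and 795 to 938 CPM in 3B3-3l. Without Col18a1 they did not overlap, at 234 to 258 CPM in J1 serum and 281 to 322 CPM in 3B3-3l serum. The part of feeder culture in these sums was not tested.

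The first comparison asked how the chain genes differed between 2i and serum in wild-type J1. Of the 38 tested genes 33 passed an adjusted p of 0.05 (edgeR quasi-likelihood test, Benjamini-Hochberg adjustment over all 17885 genes tested), against a background of 66.1% of all genes. Lower in 2i were 30, where 32.9% of all genes were lower, and higher were 3 (Col20a1, Col26a1 and Col13a1), where 33.2% of all genes were higher. The median log2 fold change of the 38 was -1.69, against 0.01 over all genes. The genes had to be measurable in some group to be tested, and most were measurable in serum, so the count is read only beside these shares.

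In 3B3-3l, which shares no library with the J1 comparison, 32 of the 38 passed the same test against a background of 65.4%. Lower in 2i were 31 (32.7% of all genes), and Col13a1 was the single gene that was higher (32.7% of all genes). The median log2 fold change was -1.84, against 0.01. The genes that were lower in both lines numbered 28, a count for which the share over all genes was not taken. The plot of the 2i effect by class shows them on a common scale.

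**Figure D1:**
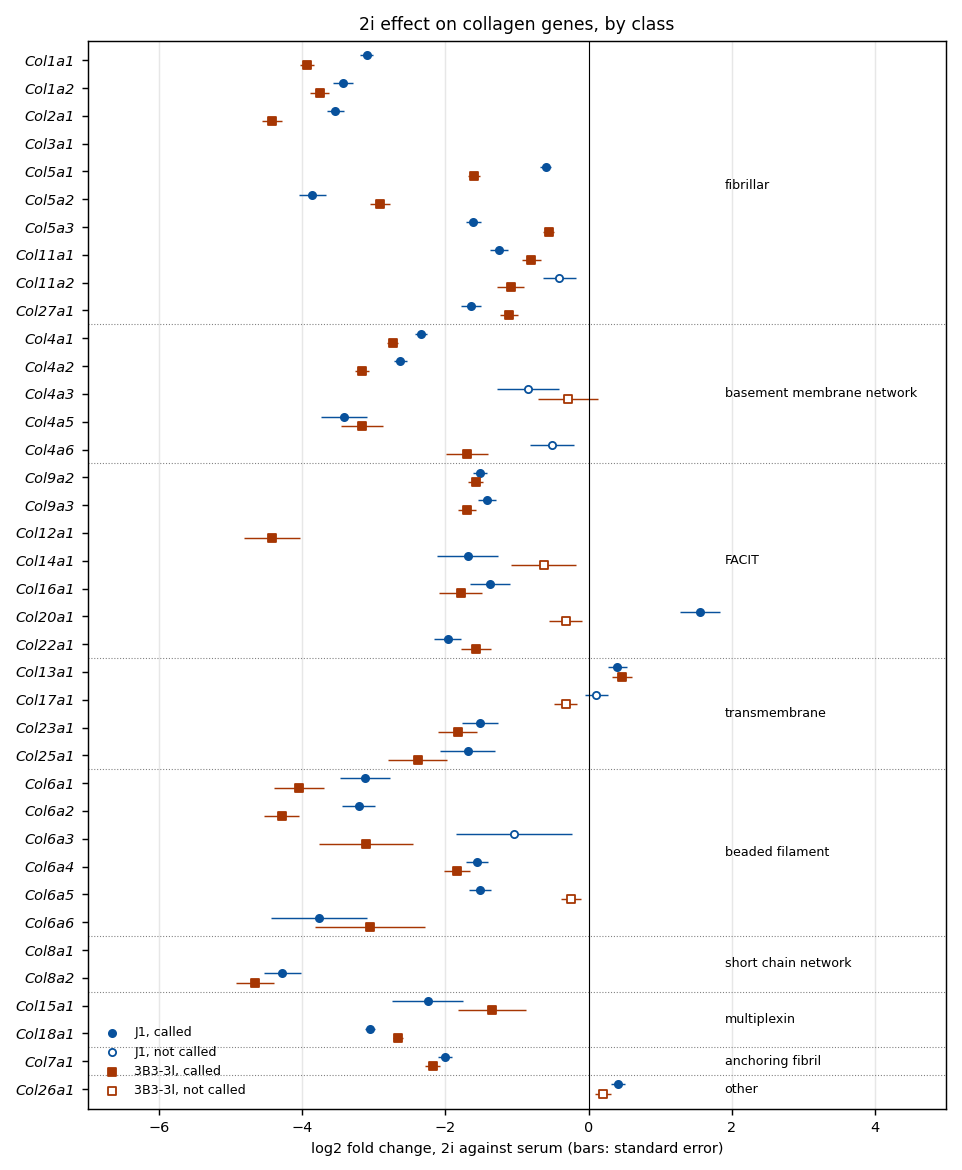
Log2 fold change of each tested collagen gene in 2i against serum, with J1 as circles and 3B3-3l as squares, standard errors as bars, filled symbols for an adjusted p under 0.05 and open symbols for the rest. Genes are ordered by class, and a point is left out where a group held 3 counts or fewer in all (Col3a1 and Col8a1 in both lines, Col12a1 in J1). Nearly all points lie to the left of 0, and Col13a1 lies to the right of it in both lines.

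**Figure D2:**
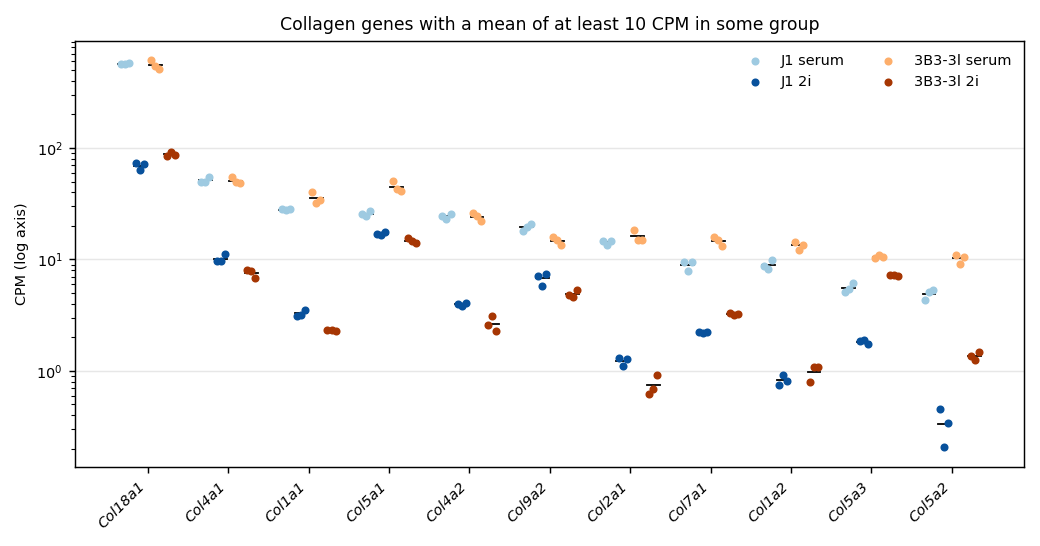
CPM of the 11 collagen genes that reached a group mean of 10 CPM, on a log axis, with a point for each of the 3 libraries of a group and a black line at their mean. Serum libraries lie above 2i libraries of the same line for every gene, and Col18a1 lies above the others in all 4 groups.

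Col18a1, at chr10:77052178-77166530, encodes the chain of collagen XVIII, a heparan sulphate proteoglycan of basement membranes whose C-terminal fragment is endostatin. It stood at 571, 565 and 581 CPM in the 3 J1 serum libraries and at 72.8, 63.1 and 71.5 in the 3 J1 2i libraries. In 3B3-3l it was 615, 539 and 514 CPM in serum and 84.4, 92.4 and 86.7 in 2i. Every serum library was above every 2i library, and the 2i libraries of 3B3-3l were all above those of J1. The log2 fold change in 2i was -3.05 ± 0.07 (SE) in J1 (adjusted p 1.37e-14) and -2.66 ± 0.07 in 3B3-3l (adjusted p 3.40e-14, both edgeR), or 8.28-fold and 6.33-fold lower. The smaller fall in 3B3-3l was called as a difference between the lines, by 0.39 ± 0.10 on the log2 scale (adjusted p 0.00552).

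RefSeq gives Col18a1 a start within the gene as well as the one shown above. By TPM, the transcript Col18a1-001, in which the 50 bases after the upstream start were found, made up 99.3% ± 0.136 (SD, n = 3) of the gene in J1 serum, 93.9% ± 2.35 in J1 2i, 99.5% ± 0.23 in 3B3-3l serum and 99.1% ± 0.619 in 3B3-3l 2i. The upstream start sequence is thus the one that belonged to nearly all of the assigned Col18a1 RNA in each group. Col15a1, the other multiplexin, stayed under 1 CPM in every group. It was lower in 2i in both lines, and the call in 3B3-3l (-1.35) was lost with offsets for transcript length (-0.20, adjusted p 0.814), with DESeq2 (-1.39, adjusted p 0.0617) and in 4 of the 12 fits that left out a library (-1.34 to -1.02): those without the first or the third 3B3-3l serum library and without the first or second 3B3-3l 2i library.

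Among the fibrillar chains 9 of 10 tested genes fell in 2i in J1 and 10 of 10 in 3B3-3l. Col1a1 (chr11:94936224-94953042) and Col1a2 (chr6:4505618-4541543) encode the chains of collagen I, the main collagen of skin and bone. Col1a1 was at 28.2, 27.8 and 28.2 CPM in J1 serum, 3.12, 3.17 and 3.54 in J1 2i, 40.4, 31.8 and 34.2 in 3B3-3l serum and 2.31, 2.32 and 2.27 in 3B3-3l 2i. Its groups did not overlap, with 3B3-3l highest in serum and lowest in 2i. The log2 fold change was -3.10 ± 0.09 in J1 (adjusted p 1.17e-13) and -3.94 ± 0.10 in 3B3-3l (adjusted p 1.34e-14), a difference of -0.84 ± 0.14 (adjusted p 0.000242, edgeR). With offsets for transcript length in each library that difference was -0.50 and was not called (adjusted p 0.0924).

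Col1a2 was at 8.67, 8.15 and 9.92 CPM in J1 serum, 0.752, 0.918 and 0.805 in J1 2i, 14.4, 12.2 and 13.6 in 3B3-3l serum and 0.793, 1.09 and 1.08 in 3B3-3l 2i. The 2i libraries of the lines overlapped and the serum libraries did not. It fell by 3.43 ± 0.14 on the log2 scale in J1 and by 3.76 ± 0.13 in 3B3-3l, and the difference of -0.33 ± 0.21 was not called (adjusted p 0.238, edgeR). Per length, Col1a1 transcripts were 2.91 ± 0.312 (SD, n = 3) times those of Col1a2 in J1 serum, 3.83 ± 0.151 in J1 2i, 2.35 ± 0.193 in 3B3-3l serum and 3.01 ± 1.34 in 3B3-3l 2i. The 3B3-3l 2i ratios ran from 1.92 to 4.5, and that spread covered the means of the other groups. With a fixed length for each gene the 3B3-3l mean was 2.38 in serum and 2.14 in 2i, so its direction between media depended on the lengths used.

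Col2a1 (chr15:97975602-98004724), the chain of cartilage collagen II, showed, in 3B3-3l, the steepest fall of the 11 genes that reached 10 CPM. It stood at 14.7, 13.5 and 14.7 CPM in J1 serum and 1.3, 1.1 and 1.27 in J1 2i, and at 18.5, 15 and 14.8 in 3B3-3l serum and 0.625, 0.695 and 0.928 in 3B3-3l 2i. All serum libraries were above all 2i libraries, and the 3B3-3l 2i libraries were the lowest. The log2 fold change was -3.54 ± 0.12 in J1 and -4.43 ± 0.14 in 3B3-3l, and these differed by -0.88 ± 0.21 (adjusted p 0.00408, edgeR). With length offsets the fall was -2.81 in J1 and -4.05 in 3B3-3l and the difference -1.24, all called.

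The 3 chains of collagen V, which sets the diameter of collagen I fibrils, moved in 2i by unequal amounts, and the line in which the fall was larger was not the same for each. Col5a1 (chr2:27886381-28039510) was at 25.6, 24.3 and 27.5 CPM in J1 serum, 16.8, 16.6 and 17.5 in J1 2i, 50.6, 42.6 and 41.3 in 3B3-3l serum and 15.5, 14.7 and 14.1 in 3B3-3l 2i. It was the chain with the smallest fall in J1 of the 11, at -0.60 ± 0.08 (adjusted p 4.85e-06), and fell by 1.60 ± 0.08 in 3B3-3l (adjusted p 3.46e-11). The difference was -1.0 ± 0.11 (adjusted p 5.91e-06, edgeR). 3B3-3l was above J1 in every serum library and below it in every 2i library.

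Col5a2 (chr1:45374331-45503282) went the other way. It was at 4.37, 5.06 and 5.28 CPM in J1 serum, 0.456, 0.207 and 0.341 in J1 2i, 11, 9.03 and 10.6 in 3B3-3l serum and 1.35, 1.25 and 1.47 in 3B3-3l 2i. 3B3-3l was above J1 in all libraries of both media. The fall was -3.86 ± 0.19 in J1 and -2.91 ± 0.14 in 3B3-3l, a difference of 0.95 ± 0.26 (adjusted p 0.0116, edgeR) that was 0.69 and not called without the second J1 2i library (adjusted p 0.0532).

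Col5a3 (chr9:20770050-20815117) was at 5.13, 5.45 and 6.15 CPM in J1 serum, 1.87, 1.88 and 1.73 in J1 2i, 10.4, 10.9 and 10.5 in 3B3-3l serum and 7.21, 7.25 and 7.14 in 3B3-3l 2i. Even in 2i its 3B3-3l libraries lay above the J1 serum libraries. It fell by 1.61 ± 0.10 in J1 (adjusted p 5.23e-10) and by 0.56 ± 0.08 in 3B3-3l (adjusted p 9.89e-06), a difference of 1.04 ± 0.12 (adjusted p 1.33e-05, edgeR). A transcript of the gene annotated as having a retained intron held 17.5% ± 4.48 (SD, n = 3) of its TPM in J1 serum, 55.1% ± 3.35 in J1 2i, 16.5% ± 3.32 in 3B3-3l serum and 31.4% ± 5.44 in 3B3-3l 2i, so the gene count covers unequal mixtures of transcripts. Per length, Col5a1 transcripts were 4.14 ± 0.423 times those of Col5a2 in J1 serum, 3.44 ± 0.351 in 3B3-3l serum and 8.82 ± 1.18 in 3B3-3l 2i, and the J1 2i ratio was not taken because a library held only 9 counts of Col5a2.

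The remaining fibrillar chains were lower in level. Col11a1 and Col11a2 encode chains of cartilage collagen XI, and Col27a1 encodes collagen XXVII. Col11a1 changed by -1.25 ± 0.13 in J1 and -0.80 ± 0.13 in 3B3-3l, and Col27a1 by -1.65 ± 0.14 and -1.11 ± 0.13, all called. Col11a2 changed by -0.41 ± 0.23 in J1, which was not called (adjusted p 0.121), and by -1.09 ± 0.19 in 3B3-3l, which was (adjusted p 8.65e-05, edgeR). Col3a1, the chain of collagen III of blood vessels and skin, is named after its values were seen, because its counts were 27, 25 and 26 in J1 serum and 21, 24 and 25 in 3B3-3l serum against 1, 0 and 1 in J1 2i and 1, 0 and 0 in 3B3-3l 2i.

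Of the basement membrane network chains, 3 of 5 tested fell in J1 and 4 of 5 in 3B3-3l. Col4a1 (chr8:11198423-11312889) and Col4a2 (chr8:11312805-11449287) encode the chains of the common form of collagen IV. Col4a1 was at 49.2, 49.7 and 55 CPM in J1 serum, 9.61, 9.66 and 11.1 in J1 2i, 55.1, 49.1 and 48.2 in 3B3-3l serum and 7.98, 7.85 and 6.88 in 3B3-3l 2i. Col4a2 was at 24.5, 23.3 and 25.5 CPM in J1 serum, 3.96, 3.83 and 4.05 in J1 2i, 26, 24.3 and 22.1 in 3B3-3l serum and 2.57, 3.13 and 2.29 in 3B3-3l 2i. For both genes the lines overlapped in serum and did not overlap in 2i, where 3B3-3l was lower.

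Col4a1 changed by -2.34 ± 0.08 in J1 and -2.74 ± 0.08 in 3B3-3l, a difference of -0.40 ± 0.11 (adjusted p 0.0121, edgeR). Col4a2 changed by -2.63 ± 0.09 and -3.17 ± 0.10, a difference of -0.54 ± 0.14 (adjusted p 0.00629) that was -0.29 with transcript length offsets and was then not called (adjusted p 0.298, edgeR). Per length, Col4a1 transcripts were 1.96 ± 0.123 times those of Col4a2 in J1 serum, 2.59 ± 0.202 in J1 2i, 2.06 ± 0.0766 in 3B3-3l serum and 2.47 ± 0.444 in 3B3-3l 2i. Of the minor chains, Col4a5 (an X-linked chain of the glomerular membrane) changed by -3.42 ± 0.32 in J1 and -3.17 ± 0.29 in 3B3-3l, both called.

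All 7 FACIT chains tested passed the test in J1, 6 lower and 1 higher, and 5 of 7 in 3B3-3l, all 5 lower. Col9a2 (chr4:121039566-121055325), a chain of collagen IX that coats cartilage fibrils, was at 17.9, 19.6 and 20.7 CPM in J1 serum, 7.15, 5.83 and 7.37 in J1 2i, 15.9, 14.8 and 13.4 in 3B3-3l serum and 4.78, 4.63 and 5.36 in 3B3-3l 2i. J1 was above 3B3-3l in every library of each medium, and serum was above 2i. It fell by 1.52 ± 0.10 in J1 and by 1.58 ± 0.10 in 3B3-3l, with a difference of -0.07 ± 0.14 that was not called (adjusted p 0.753, edgeR). Its partner Col9a3 fell by 1.42 ± 0.13 and by 1.70 ± 0.12, both called, while the remaining chain of collagen IX, Col9a1, had at most 11 counts in a library and was not tested.

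Col20a1 (chr2:180983323-181017545), the chain of collagen XX, was the exception among the FACIT chains. It was at 0.884, 0.482 and 0.867 CPM in J1 serum, 2.62, 2.3 and 1.63 in J1 2i, 2.3, 3.82 and 3.79 in 3B3-3l serum and 3.1, 2.09 and 2.78 in 3B3-3l 2i. The J1 serum libraries were the lowest, and the other 3 groups overlapped. It rose by 1.56 ± 0.28 in J1 (adjusted p 0.000127) and its change in 3B3-3l was -0.32 ± 0.23 (adjusted p 0.23). The difference of -1.88 ± 0.36 (adjusted p 0.000857, edgeR) was the largest of the called differences between the lines.

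Col12a1, which links fibrils to the matrix around them, held 38, 23 and 45 counts in J1 serum and 0, 1 and 0 in J1 2i, and 62, 76 and 56 counts in 3B3-3l serum and 2, 4 and 3 in 3B3-3l 2i. No 2i library of either line held more than 4 counts of it. Col16a1 changed by -1.38 ± 0.28 in J1 and -1.79 ± 0.30 in 3B3-3l, and Col22a1, a collagen of tissue junctions, by -1.97 ± 0.19 and -1.58 ± 0.21, all called. With length offsets the J1 value of Col22a1 was -2.77.

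Of the 4 transmembrane chains, Col13a1 was higher in 2i in both lines, Col17a1 was called in neither and Col23a1 and Col25a1 were lower in both, of which the fall of Col23a1 in J1 was not called with length offsets (-0.94, adjusted p 0.0887). Col13a1 (chr10:61838234-61979206), a collagen of cell adhesion sites and the neuromuscular junction, was at 3.27, 3.04 and 3.71 CPM in J1 serum, 4.97, 4.32 and 3.95 in J1 2i, 3.26, 2.44 and 3.42 in 3B3-3l serum and 4.28, 4.38 and 3.87 in 3B3-3l 2i. Every 2i library was above every serum library. It rose by 0.40 ± 0.13 in J1 (adjusted p 0.0147) and by 0.46 ± 0.14 in 3B3-3l (adjusted p 0.00756, edgeR). The call in J1 was lost without the second J1 serum library (0.34, adjusted p 0.0659), without the first J1 2i library (0.31, adjusted p 0.0772) and with length offsets (0.39, adjusted p 0.0522), and that in 3B3-3l without the second 3B3-3l serum library (0.32, adjusted p 0.0506).

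Col17a1, the hemidesmosomal collagen of epithelia, had a log2 fold change of 0.11 ± 0.16 in J1 (adjusted p 0.548) and of -0.32 ± 0.16 in 3B3-3l (adjusted p 0.0932, edgeR). Its group means lay between 2.64 and 3.3 CPM. Col26a1, a small collagen first found in testis and ovary, was at 5.78, 4.72 and 5.42 CPM in J1 serum, 7.91, 6.63 and 6.63 in J1 2i, 5.64, 5.5 and 5.07 in 3B3-3l serum and 6.66, 5.63 and 6.29 in 3B3-3l 2i. It rose by 0.41 ± 0.10 in J1 (adjusted p 0.00246), where the groups did not overlap. Its change in 3B3-3l was 0.20 ± 0.11 (adjusted p 0.114, edgeR), and there they did.

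Of the beaded filament chains 5 of 6 fell in each line. Col6a1 and Col6a2, chains of the common collagen VI, changed by -3.12 ± 0.35 and -3.21 ± 0.23 in J1 and by -4.05 ± 0.35 and -4.29 ± 0.24 in 3B3-3l, where Col6a1 was at -4.91 without the first 3B3-3l 2i library. Col6a4 changed by -1.56 ± 0.16 and -1.84 ± 0.18, all called. Col6a5 was at 2.99, 3.23 and 3.66 CPM in J1 serum, 1.28, 1.12 and 1.02 in J1 2i, 1.93, 2.41 and 1.98 in 3B3-3l serum and 1.68, 1.76 and 1.91 in 3B3-3l 2i. It fell by 1.52 ± 0.15 in J1 (adjusted p 1.61e-07), its change in 3B3-3l was -0.25 ± 0.14 (adjusted p 0.151), and the difference was 1.28 ± 0.21 (adjusted p 0.00022, edgeR).

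Both tested short chain network genes fell in both lines. Col8a2, a chain of the membrane under the corneal endothelium, was at 2.77 CPM ± 0.231 (SD, n = 3) in J1 serum, 0.14 ± 0.0587 in J1 2i, 2.94 ± 0.257 in 3B3-3l serum and 0.116 ± 0.0672 in 3B3-3l 2i. It changed by -4.28 ± 0.26 in J1 and by -4.66 ± 0.27 in 3B3-3l, and the difference of -0.38 ± 0.49 was not called (adjusted p 0.594, edgeR). Col7a1 (chr9:108953586-108984875), whose anchoring fibrils fix the basement membrane of skin to the dermis, was at 9.43, 7.83 and 9.51 CPM in J1 serum, 2.23, 2.2 and 2.22 in J1 2i, 16, 14.8 and 13.3 in 3B3-3l serum and 3.32, 3.17 and 3.22 in 3B3-3l 2i. None of the 4 groups overlapped. It fell by 2.01 ± 0.10 in J1 and by 2.18 ± 0.10 in 3B3-3l, with a difference of -0.17 ± 0.15 (adjusted p 0.389, edgeR).

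The make-up of the collagen RNA also differed between media. It was taken per length, as reads per kilobase of effective transcript length, scaled to the same library size, so that genes can be set side by side. The summed per-length level was 174 ± 1.87 (SD, n = 3) in J1 serum, 38 ± 2.21 in J1 2i, 180.3 ± 15.1 in 3B3-3l serum and 40.3 ± 1.51 in 3B3-3l 2i. Col18a1 held the highest per-length level in all 4 groups. Its share was 67.3% ± 0.206 in J1 serum and 38.4% ± 2.52 in J1 2i, and 63.6% ± 1.03 in 3B3-3l serum and 43.4% ± 3.32 in 3B3-3l 2i.

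The share of the transmembrane chains was 1.38% ± 0.11 in J1 serum and 6.74% ± 0.698 in J1 2i, and 1.21% ± 0.162 and 5.34% ± 0.381 in 3B3-3l. Fibrillar chains made up 9.43% ± 0.193, 12% ± 0.5, 13% ± 0.371 and 12.9% ± 1.16 in J1 serum, J1 2i, 3B3-3l serum and 3B3-3l 2i, and basement membrane network chains 7.36% ± 0.316, 7.08% ± 0.571, 7.14% ± 0.112 and 5.15% ± 0.352. Within the fibrillar class Col1a1 went from 2.87% to 1.66% of all collagen transcripts in J1 and from 3.47% to 1.34% in 3B3-3l, while Col5a1 went from 1.8% to 5.54% and from 3.04% to 4.53%. Of the collagen transcripts other than Col18a1, the fibrillar share was lower in 2i, at 28.8% ± 0.415 in J1 serum and 19.4% ± 0.89 in J1 2i, and 35.7% ± 0.804 and 22.8% ± 2.13 in 3B3-3l.

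Col26a1 had rank 4 among the 44 genes per length in both serum groups and rank 2 in both 2i groups. Its share was 3.34% ± 0.492 in J1 serum, 19.7% ± 2.68 in J1 2i, 3.76% ± 0.538 in 3B3-3l serum and 18.7% ± 2.12 in 3B3-3l 2i. Its per-length level moved less, at 5.82, 7.51, 6.72 and 7.58 in the same order. A short transcript of the gene annotated as having a retained intron held 57.7% ± 1.78 of its TPM in J1 serum, 44% ± 12.2 in J1 2i, 56.2% ± 2.63 in 3B3-3l serum and 33.1% ± 3.22 in 3B3-3l 2i. With a fixed length for each gene, that of its longest transcript, the shares were 1.42%, 9.74%, 1.4% and 7.81%, an alternative chosen after the data were seen. The step from serum to 2i was there under either length, and the level was not.

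**Figure D3:**
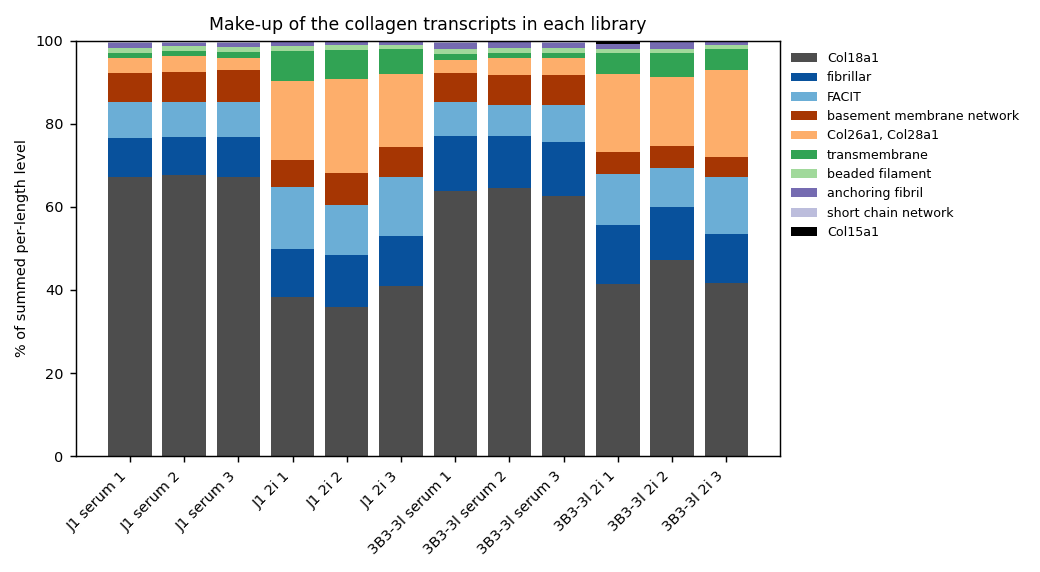
Share of each collagen class in the summed per-length level of all 44 genes, as stacked bars in per cent for each of the 12 libraries, with Col18a1 drawn apart from its class. Col18a1 makes up most of every serum bar, and the Col26a1 and transmembrane parts are wider in every 2i bar.

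The second pair of comparisons asked how 3B3-3l differed from J1 within a medium. They use the same libraries as the comparisons of media, so their values are set side by side with those and not counted as further evidence. In serum 17 of the 38 genes passed the test (background 38.7%), 13 higher in 3B3-3l (21.5% of all genes) and 4 lower (17.2%), with a median log2 fold change of 0.08 against 0.03 over all genes. In 2i 17 passed (background 45.9%), 10 higher (23.0%) and 7 lower (22.9%), with a median of -0.19 against 0.01. The share of the tested collagen genes called was close to the background in both media.

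Among the fibrillar chains, in serum 6 of the 10 tested were higher in 3B3-3l (21.5% of all genes) and none was lower (17.2% of all genes). Col5a2 was higher by 1.06 ± 0.12 (adjusted p 6.59e-06), Col5a3 by 0.93 ± 0.08 (adjusted p 3.65e-07), Col5a1 by 0.80 ± 0.07 (adjusted p 8.58e-07) and Col1a2 by 0.59 ± 0.10 (adjusted p 0.000214, all edgeR). Col1a1 was higher by 0.34 ± 0.07 (adjusted p 0.0021), and this was 0.32 and not called with length offsets (adjusted p 0.0634, edgeR). The sixth was Col11a2, with 1.47 ± 0.19 (adjusted p 2.50e-05), and this was 1.06 and not called with length offsets (adjusted p 0.0749). The 3B3-3l serum libraries, where these chains were high, also had the highest fibroblast marker sums of the 4 groups. Of the 7 tested fibroblast markers 4 were higher in 3B3-3l serum than in J1 serum and none was lower (median log2 fold change 0.26). Of the 12 primitive endoderm markers 10 were higher and 1 was lower (median 0.99). For both lists the shares over all genes were again 21.5% higher and 17.2% lower. The part of either in the fibrillar values was not tested.

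In 2i the fibrillar chains split. Col5a2 was higher in 3B3-3l by 2.01 ± 0.23 (adjusted p 3.27e-06) and Col5a3 by 1.98 ± 0.09 (adjusted p 3.46e-10), and Col11a1, Col11a2 and Col27a1 by 0.68 ± 0.14, 0.79 ± 0.22 and 0.62 ± 0.15, of which Col11a2 was at 0.30 and not called with length offsets (adjusted p 0.657). Col2a1 was lower by 0.71 ± 0.19 on the log2 scale (adjusted p 0.00531) and Col1a1 by 0.51 ± 0.12 (adjusted p 0.00213, all edgeR). The Col1a1 value was -0.19 with length offsets (adjusted p 0.424). Col5a1 stood at -0.20 ± 0.08 with an adjusted p of 0.0484 in the edgeR fit, and the call was lost in 6 of the 12 fits that left out a library, among them each of the 3 that left out a J1 2i library (-0.22 to -0.18), and with length offsets (-0.13, adjusted p 0.294, edgeR). The other fits without a library were those without the second 3B3-3l serum library (-0.20) and without the second or the third 3B3-3l 2i library (-0.23 and -0.17).

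For the basement membrane chains, no difference between the lines was called in serum for Col4a1 (-0.01 ± 0.07), Col4a2 (-0.02 ± 0.08) or Col18a1 (-0.04 ± 0.07). In 2i Col4a1 was lower in 3B3-3l by 0.42 ± 0.09 on the log2 scale (adjusted p 0.00111) and Col4a2 by 0.56 ± 0.11 (adjusted p 0.000738), while Col18a1 was higher by 0.35 ± 0.07 (adjusted p 0.000716, all edgeR). Components of the same kind of matrix thus differed between the lines in opposite directions in 2i. With length offsets Col4a2 was at -0.37 and not called (adjusted p 0.0702).

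Col9a2 was lower in 3B3-3l in both media, with -0.40 ± 0.09 in serum (adjusted p 0.00274) and -0.46 ± 0.11 in 2i (adjusted p 0.00226), whereas its partner Col9a3 was higher in both, with 0.71 ± 0.11 (adjusted p 0.000128) and 0.42 ± 0.14 (adjusted p 0.0183, all edgeR). The last of these calls was lost without the first 3B3-3l 2i library (0.35, adjusted p 0.0812), without the third (0.39, adjusted p 0.058) and with length offsets (0.53, adjusted p 0.167). Per length, Col9a2 transcripts were 3.15 ± 0.552 (SD, n = 3) times those of Col9a3 in J1 serum, 2.58 ± 0.764 in J1 2i, 1.23 ± 0.292 in 3B3-3l serum and 1.21 ± 0.453 in 3B3-3l 2i. The lowest J1 ratio was 2.08 and the highest 3B3-3l ratio was 1.7, so the lines did not overlap in either medium. With a fixed length the ratios were 3.73, 3.48, 1.74 and 1.9.

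Col7a1 was higher in 3B3-3l in both media, by 0.72 ± 0.09 in serum and by 0.54 ± 0.12 in 2i (adjusted p 1.11e-05 and 0.00117, edgeR). Col20a1 was higher by 2.15 ± 0.27 in serum (adjusted p 1.35e-05) and had 0.28 ± 0.23 in 2i (adjusted p 0.358, edgeR). Col6a5 was lower by 0.64 ± 0.14 in serum and higher by 0.64 ± 0.15 in 2i (adjusted p 0.00175 and 0.00312, edgeR). No transmembrane chain and neither short chain network gene was called between the lines in either medium.

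**Figure D4:**
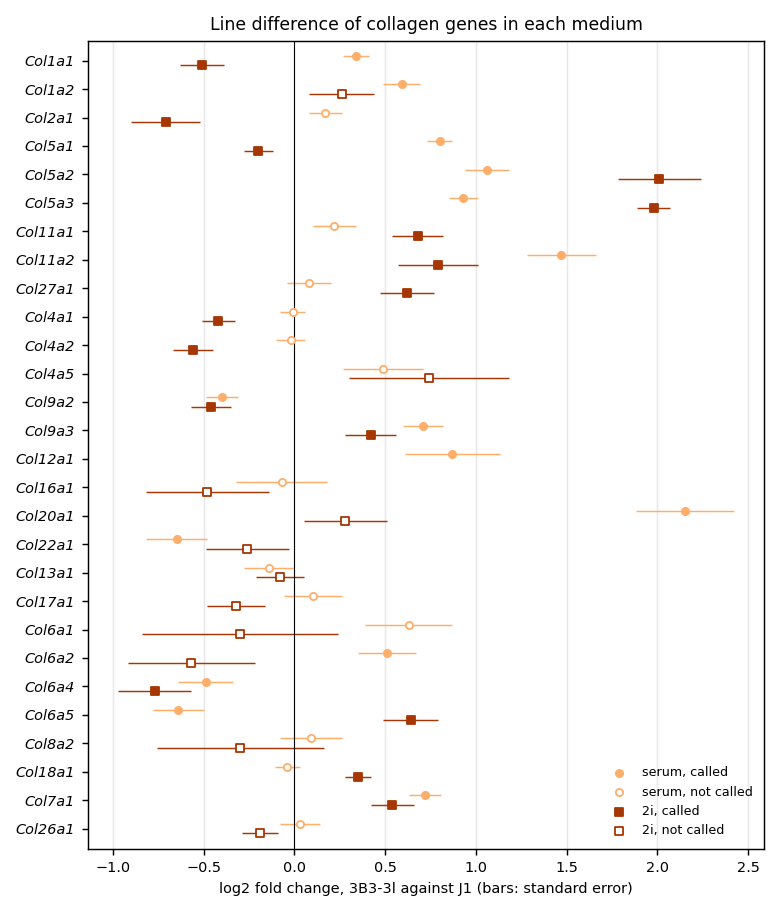
Log2 fold change of 3B3-3l against J1 for the collagen genes that reached a group mean of 1 CPM, in serum as circles and in 2i as squares, with standard errors as bars and filled symbols for an adjusted p under 0.05. Col12a1 in 2i is left out because J1 2i held a single count. Col5a2 and Col5a3 lie furthest to the right in 2i, and Col4a1 and Col4a2 lie at 0 in serum and to the left of it in 2i.

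The difference of the 2i effects between the lines, tested as an interaction over all 12 libraries, was called for 13 of the 38 genes (background 34.7%). That share was close to the background. In 5 the value was above 0 (16.3% of all genes), which here means a smaller fall in 3B3-3l (Col18a1, Col27a1, Col5a2, Col5a3 and Col6a5). In 8 it was below 0 (18.3% of all genes), in Col20a1 with a rise in J1 and in Col1a1, Col2a1, Col4a1, Col4a2, Col4a6, Col5a1 and Col6a2 with a larger fall in 3B3-3l. The calls of Col27a1, Col6a2 and Col4a6 were each lost in 8 or 9 of the 12 fits that left out a library. The median was -0.30, against -0.03 over all genes. The fibrillar class held called members of either sign, 3 above and 3 below 0. Among these, the call of Col1a1 was lost with length offsets and that of Col5a2 without the second J1 2i library.

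The genes that process, bind and degrade collagens were taken from 3 lists, and they did not all move as the chains did. Of the collagen biosynthesis list, 27 of 32 genes were tested. In J1 22 passed the test (background 66.1%), 9 higher in 2i (33.2% of all genes) and 13 lower (32.9%), with a median of -0.17. In 3B3-3l all 27 did (background 65.4%), 8 higher and 19 lower (32.7% of all genes in each direction), with a median of -1.07. The difference of the 2i effects was called for 15 of them (background 34.7%), 2 above 0 and 13 below. Lox, a cross-linking oxidase, held no counts in 3B3-3l 2i against 42 in 3B3-3l serum, at least 14.5-fold lower against a floor of 3 counts over the group, and with Lox at that bound the median was still -1.07.

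Among the members of this list with the largest changes, Fkbp10, a prolyl isomerase of procollagen folding, went from 59.4 CPM ± 1.8 (SD, n = 3) to 7.16 ± 1.34 in J1 and from 54.8 ± 4.61 to 7.63 ± 0.359 in 3B3-3l, a log2 fold change of -3.05 ± 0.10 and -2.84 ± 0.10. Adamts14, a procollagen N-proteinase, changed by -2.72 ± 0.09 and -3.33 ± 0.10, and Bmp1, a procollagen C-proteinase, by -2.81 ± 0.13 and -3.17 ± 0.13. P3h4, a partner of the lysyl hydroxylation complex, changed by -2.30 ± 0.09 in J1 and -2.30 ± 0.10 in 3B3-3l, and the J1 value was -3.09 with length offsets. Pcolce, the enhancer of the C-proteinase, was at 70.4 ± 2.44 CPM in J1 serum and 169.8 ± 19.8 in J1 2i, and at 87.6 ± 9.15 and 198 ± 6.69 in 3B3-3l, a rise of 1.27 ± 0.08 and 1.17 ± 0.08. In both lines Pcolce rose while Bmp1 fell. Loxl2, an oxidase active on collagen IV, was at 13.5 ± 2.74 CPM in J1 serum and 7.99 ± 0.66 in J1 2i, and at 27.3 ± 1.72 and 2.26 ± 0.337 in 3B3-3l, a log2 fold change of -0.76 ± 0.12 and -3.60 ± 0.14. All of these were called (edgeR).

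**Figure D5:**
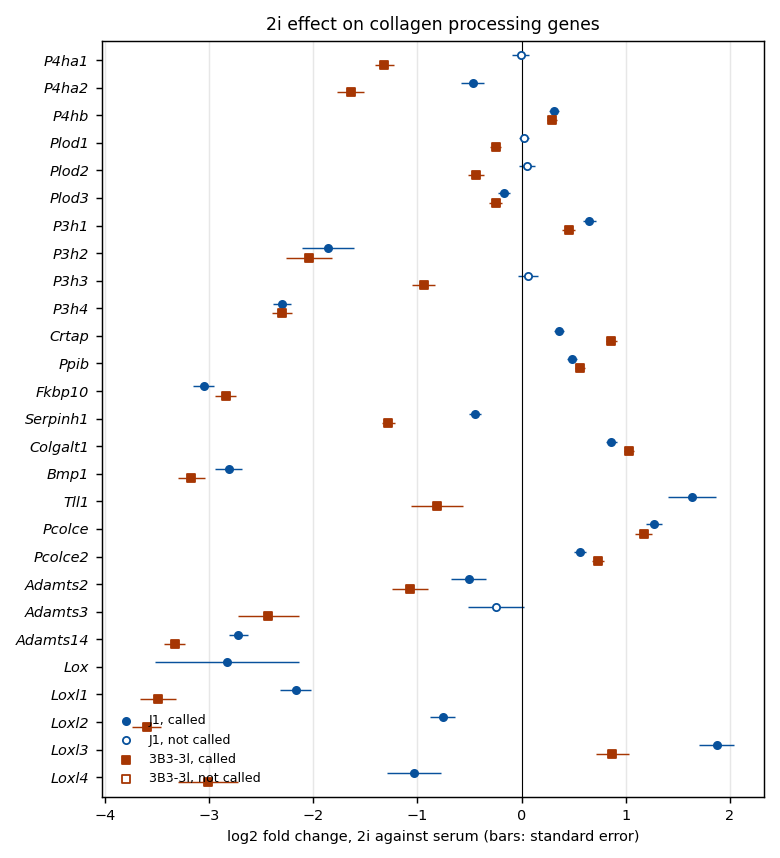
Log2 fold change in 2i against serum of the 27 tested collagen biosynthesis genes, with J1 as circles and 3B3-3l as squares, standard errors as bars and filled symbols for an adjusted p under 0.05. Lox in 3B3-3l is left out because 3B3-3l 2i held no counts. Points lie on either side of 0, with Pcolce to the right and Fkbp10, Bmp1 and Adamts14 to the left in both lines.

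Of the 10 collagen receptors 7 were tested, and 4 were lower in 2i in J1 with none higher, while 5 were lower and 1 was higher in 3B3-3l. The background was 66.1% called in J1, to which the 4 of 7 were close, and 65.4% in 3B3-3l. By direction, 32.9% of all genes were lower and 33.2% higher in J1, and 32.7% were so in each direction in 3B3-3l. Ddr1, a receptor tyrosine kinase that binds collagen, was at 73.9 ± 3.67 CPM in J1 serum and 18.9 ± 0.472 in J1 2i, and at 92.9 ± 6.68 and 15.2 ± 0.2 in 3B3-3l, a log2 fold change of -1.97 ± 0.06 and -2.61 ± 0.06. Its relative Ddr2 went from 4.43 ± 0.637 to 13.6 ± 0.717 CPM in 3B3-3l, a rise of 1.62 ± 0.11 (adjusted p 2.86e-09), and had -0.16 ± 0.12 in J1 (adjusted p 0.247, edgeR). Mrc2, the endocytic receptor that takes up collagen fragments, went from 9.49 ± 0.569 to 0.506 ± 0.0217 CPM in J1, a fall of 4.22 ± 0.14 on the log2 scale, and from 10.6 ± 0.725 to 0.248 ± 0.107 CPM in 3B3-3l, a fall of 5.38 ± 0.16. Itgb1, the shared beta chain of the collagen-binding integrins, changed by -0.35 ± 0.05 in J1 (269 ± 8.05 to 211 ± 11.2 CPM) and by -0.14 ± 0.05 in 3B3-3l (203 ± 13.1 to 184 ± 3.64 CPM). The call in 3B3-3l was lost with length offsets (-0.11, adjusted p 0.0768), without the second or the third 3B3-3l serum library (-0.13 and -0.10) and without the third 3B3-3l 2i library (-0.13).

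All 7 tested genes of collagen turnover passed the test in both lines, against backgrounds of 66.1% in J1 and 65.4% in 3B3-3l. In each line 6 were lower (32.9% of all genes in J1 and 32.7% in 3B3-3l) and Timp1 was higher (33.2% and 32.7%). Timp3, a metalloproteinase inhibitor bound to the matrix, went from 13.9 ± 0.559 CPM in serum to 0.949 ± 0.154 in 2i in J1 and from 14.4 ± 0.923 to 0.711 ± 0.0475 in 3B3-3l, a log2 fold change of -3.86 and -4.33 that was -2.06 and -2.96 with length offsets. Mmp2, a gelatinase that is also among the fibroblast markers, went from 30.9 ± 3.4 to 3.09 ± 0.213 and from 42.4 ± 0.23 to 5.08 ± 0.167. Mmp15 changed by -1.56 ± 0.08 in J1 and Mmp14 by -1.62 ± 0.06 in 3B3-3l, both membrane-bound metalloproteinases. Timp1 rose by 1.46 ± 0.09 in J1 and by 1.36 ± 0.09 in 3B3-3l (adjusted p 7.43e-10 and 1.71e-09, edgeR), so that inhibitors of the same family moved in opposite directions.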

How the data were processed

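Poly(A) RNA was sequenced from stranded libraries. The study combined a larger set of libraries in 2 pools, and the sources used here do not say which pool held each of these 12. The authors quantified transcripts with Sailfish against mm10. They deposited a gene table of estimated counts summed with tximport and, for each library, transcript tables of TPM and estimated reads. Ensembl IDs were paired with symbols through reference tables. Of the genes, 85.6% had a symbol, and these held 98.4% of the reads.

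Estimated counts were rounded. Genes were filtered by filterByExpr, scaled by TMM (factors 0.97 to 1.04) and fitted in R 4.3.3 with edgeR 4.0.16 (quasi-likelihood test, all 12 libraries, Benjamini-Hochberg adjustment, threshold 0.05). The tests set each difference against the spread between the 3 biological replicates within a group, estimated jointly over the 4 groups. Fits were tested on simulated data. Per-length levels are transcript reads over effective length, from transcripts assigned to a gene through an annotation of another build (90.4% of 94647 transcripts), so 4 members (Col11a1, Col12a1, Col25a1 and Col27a1) lack some transcripts. The smallest chi-square between replicates was 3.91 per gene, above sampling noise for every pair. Replicates of the same number did not pair: correlations of their deviations ran from -0.118 to 0.062.

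Members that reached a group mean of 10 CPM were given by library. Others called with at least 1 CPM could be named, as could up to 4 genes of a list in each comparison of media with the largest changes. Lox, Col3a1, Col4a6, Col15a1, Col17a1, Col23a1 and Col25a1, the untested members and the markers of other cell types were named outside this rule, after their values were seen. The members and lists were chosen with earlier results of these data known. Alternatives were DESeq2 size factors, DESeq2 1.42.0, other filters, length offsets, a replicate block, fits of only the compared libraries and fits without each library. Mia3 of the biosynthesis list was not matched.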

Additional observations from a re-analysis of the deposited data

Results flagged for a closer look

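The 2i effect differed between the lines, by the interaction test (edgeR, adjusted p under 0.05), for 13 of the 38 tested collagen genes. That share was close to the 34.7% of all genes. The difference, 3B3-3l minus J1 on the log2 scale, was -1.88 for Col20a1, -1.19 for Col4a6, -1.09 for Col6a2, -1.0 for Col5a1, -0.88 for Col2a1, -0.84 for Col1a1, -0.54 for Col4a2 and -0.40 for Col4a1. It was 0.39 for Col18a1, 0.54 for Col27a1, 0.95 for Col5a2, 1.04 for Col5a3 and 1.28 for Col6a5. Col4a6 stayed under 1 CPM in every group. The call of Col27a1 was lost in 9 of the 12 fits that left out a library (0.45 to 0.56 in those), that of Col4a6 in 9 (-1.25 to -1.07) and that of Col6a2 in 8 (-1.13 to -0.82). The calls of Col27a1 and Col4a6 were also lost with DESeq2 (adjusted p 0.099 and 0.114), with no filter on low counts (0.0845 and 0.0823) and with length offsets (0.149 and 0.0559). Length offsets also removed the calls of Col1a1 (-0.50, adjusted p 0.0924) and Col4a2 (-0.29, adjusted p 0.298, edgeR). The call of Col5a2 was lost without the second J1 2i library (0.69, adjusted p 0.0532, edgeR).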

How the results depend on the processing

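The calls of the chain genes in the 2i comparisons moved little, with 31 to 34 in J1 (33 as reported) and 29 to 34 in 3B3-3l (32) over DESeq2 size factors, the DESeq2 test, 2 other filters, fits of the compared libraries alone, a replicate block and offsets for transcript length. Without each library in turn they ran from 32 to 34 and from 32 to 33. With transcript length offsets the calls between the lines in 2i were 11 in place of 17, those in serum 12 in place of 17 and those of the difference of the 2i effects 9 in place of 13, and the cause was not tested. Leaving out a library gave 14 to 18, 13 to 20 and 10 to 13 for these. Libraries of the same number shared only that number, and with the replicate number as a block the counts were 33, 32, 17, 17 and 13, in the order J1 2i, 3B3-3l 2i, lines in 2i, lines in serum and difference of the 2i effects.

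Values that changed sign were uncalled in every setting that changed it. With length offsets the difference of the 2i effects of Col7a1 was 0.12, the 2i effect of Col17a1 in J1 was -0.29 and that of Col20a1 in 3B3-3l was 0.08. Without 1 library the serum difference between the lines ran from -0.12 to 0.01 for Col18a1 and from -0.08 to 0.04 for both Col4a1 and Col4a2. Of 993 values of named genes under other settings 966 kept direction and call and 24 lost the call, and of 1740 without a library 1674 kept both, 58 lost the call and 2 gained it. Values per length depended more on the setting. With a fixed length for each gene 11 of 26 chain ratios and 12 of 16 shares of the collagen RNA moved by more than 1 SD, and 26 of 52 transcript shares did with reads in place of TPM, such as the retained-intron transcript of Col26a1 in J1 serum (57.7% of TPM and 26.4% of reads). The Col17a1 fall in 3B3-3l was called without the second 3B3-3l serum library (-0.45, adjusted p 0.0243, edgeR) and that of Col20a1 without the first (-0.52, adjusted p 0.0458). Genes under 1 CPM rest on few counts.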
